A study of Mus musculus with 4 samples.

Results

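The genes described are 10 tetraspanins, Cd37 and 9 relatives (Cd53, Cd63, Cd81, Cd82, Cd9, Cd151, Tspan3, Tspan31 and Tspan32). They were chosen by name, with earlier results of these data known, and all 10 are among the 17104 genes of the deposited table. RNA was measured by poly(A) RNA-seq in bone marrow leukemic stem cells (LSCs), defined as YFP+, c-kit+ cells, of a mouse acute myeloid leukemia (AML). There were 2 CD37 fl/fl and 2 CD37 -/- libraries, taken 6 weeks after the secondary transplantation from male mice of the C57 strain. In the study's methods, lineage-negative bone marrow cells of CD37 fl/fl, Cre+ mice received a retrovirus that carries MLL-AF9 and YFP, so that cells of both groups carried the fusion, the floxed Cd37 alleles and a Rosa26-CreERT2 allele, a ubiquitous Cre that tamoxifen activates. The CD37 -/- cells came from tamoxifen-treated recipients and the CD37 fl/fl cells from recipients given corn oil, so effects of tamoxifen and of the deletion cannot be told apart. Recipients were irradiated C57 mice with their own intact Cd37, and their cells carry no YFP. The series calls the replicates independent without naming mice, and all p-values measure the spread between these libraries.

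Tetraspanins are membrane proteins that cross the membrane 4 times and expose a small and a large extracellular loop. They bind each other and partner proteins such as integrins, the ADAM10 protease and immune receptors, and hold them together in membrane patches known as tetraspanin-enriched microdomains. CD37, CD53 and TSPAN32 are found mainly on blood cells, whereas CD9, CD63, CD81, CD82 and CD151 are used in many tissues.

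Cd37 (ENSMUSG00000030798) lies on the minus strand at chr7:45233632-45239115 in GENCODE M21 on GRCm38, a span of 5484 bases. The loxP sites were placed before exon 4 and after exon 5, and the transcript behind these exon numbers is not named in the sources used here. In the transcript with 9 exons, exons 4 and 5 hold 125 and 75 bases. Together they are 200 bases, 15.8% of this transcript of 1268 bases, and leave a remainder of 2 when divided by 3. In the transcript with 8 exons, the principal form in the annotation, exons 4 and 5 hold 75 and 105 bases. These sum to 180 bases, 14.7% of 1227 bases, with a remainder of 0. The exon of 75 bases is removed under both numberings. The deleted stretch is shown by its 3 candidate exons, 5′ to 3′ on the minus strand, to let the size of the deletion be seen beside the read counts below.
Exon 4 of 9, chr7:45237160-45237284: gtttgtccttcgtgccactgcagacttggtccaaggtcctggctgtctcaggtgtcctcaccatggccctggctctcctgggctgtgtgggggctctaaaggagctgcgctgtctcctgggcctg
Exon 5 of 9 and exon 4 of 8, chr7:45237002-45237076: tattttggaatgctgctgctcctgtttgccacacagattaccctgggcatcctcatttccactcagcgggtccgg
Exon 6 of 9 and exon 5 of 8, chr7:45236115-45236219: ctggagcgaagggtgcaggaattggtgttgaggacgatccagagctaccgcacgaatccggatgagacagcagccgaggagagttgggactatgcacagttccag
All these bases are coding. Most of the Cd37 transcript, including the exon that holds the loop motif shown next, lies outside them, and the deposited table holds 1 value per gene, so the reads were not resolved by exon.

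The family is recognized by a motif in the large loop, a pair of cysteine codons (TGT or TGC) followed by a glycine codon (GGN), in frame on the coding strand. All 10 coding sequences held it, beside 551 of 21786 protein-coding genes (2.53%) with a principal transcript in GENCODE M21. The loop of Cd37 is shown with those of the 4 members that are compared with it most closely below, with the motif in capitals.
Cd37: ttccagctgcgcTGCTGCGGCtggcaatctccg
Cd53: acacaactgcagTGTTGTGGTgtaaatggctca
Cd9: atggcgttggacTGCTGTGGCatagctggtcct
Cd82: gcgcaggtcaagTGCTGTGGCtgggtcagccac
Cd81: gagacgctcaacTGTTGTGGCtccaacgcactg
In Cd37 the motif lies in exon 7 of the form with 9 exons and in exon 6 of that with 8, outside the deleted stretch under both numberings. The bases around the motif differed from gene to gene.

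The deposited FPKM values were reads per kilobase of the whole gene span, introns included, scaled to the depth of the library. Dividing by the value of 1 read gave whole reads for 98.9% of values in each library (within 0.05 of a whole number, which chance meets for 10% of values). The recovered totals were 15139063 and 17252340 for CD37 fl/fl, against 17638604 and 22562837 for CD37 -/-. The test was limma on log2(FPKM + 1) for the 6761 genes whose FPKM averaged at least 1, a scale that understates the change of low genes. As an alternative, limma-voom was run on the recovered reads of 13056 genes. No gene passed an adjusted p (Benjamini-Hochberg) of 0.05 in either fit (0 of 6761, 0.0%), and the smallest adjusted p in limma was 0.0502. At an unadjusted p under 0.05, limma had 1088 genes higher (16.1%) and 538 lower (7.96%) in CD37 -/- LSCs, and limma-voom 2498 higher (19.1%) and 805 lower (6.17%). The direction of these calls depended on the scaling. Of the limma calls, 66.9% were higher in CD37 -/- LSCs, beside 47.5% after quantile normalization, 58.4% after division by the upper quartile and 91.4% after rescaling to TPM. Over all tested genes, the log2 fold change had a median of 0.11 as deposited, -0.02, 0.06 and 0.49 under these scalings, and 0.25 in limma-voom. TPM here stands for the deposited FPKM scaled to the same sum in every library, so it rests on gene spans and not on transcript lengths.

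Of the 10 members, 9 reached the filter, and Tspan3 did not. Cd9 reached it only through CD37 -/-, with a mean FPKM of 1.66 there and 0.652 in CD37 fl/fl. Its place among the genes tested in limma thus depended on the group where it was higher. In limma, 3 of the 9 (Cd53, Cd82 and Cd9) were higher at an unadjusted p under 0.05 and 1 (Cd37) was lower, beside the 16.1% and 7.96% of all tested genes. Both CD37 -/- libraries were above both CD37 fl/fl libraries for 6 of the 9 (Cd53, Cd81, Cd82, Cd9, Tspan31 and Tspan32), which was the case for 38.2% of all tested genes. Both were below for Cd37, as for 23.7% of all tested genes. The groups overlapped for Cd63 and Cd151. The median log2 fold change of the 9 was 0.39, and none passed the adjusted p. In limma-voom the count of members was also 3 higher and 1 lower, of 10 tested.

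**Figure D1:**
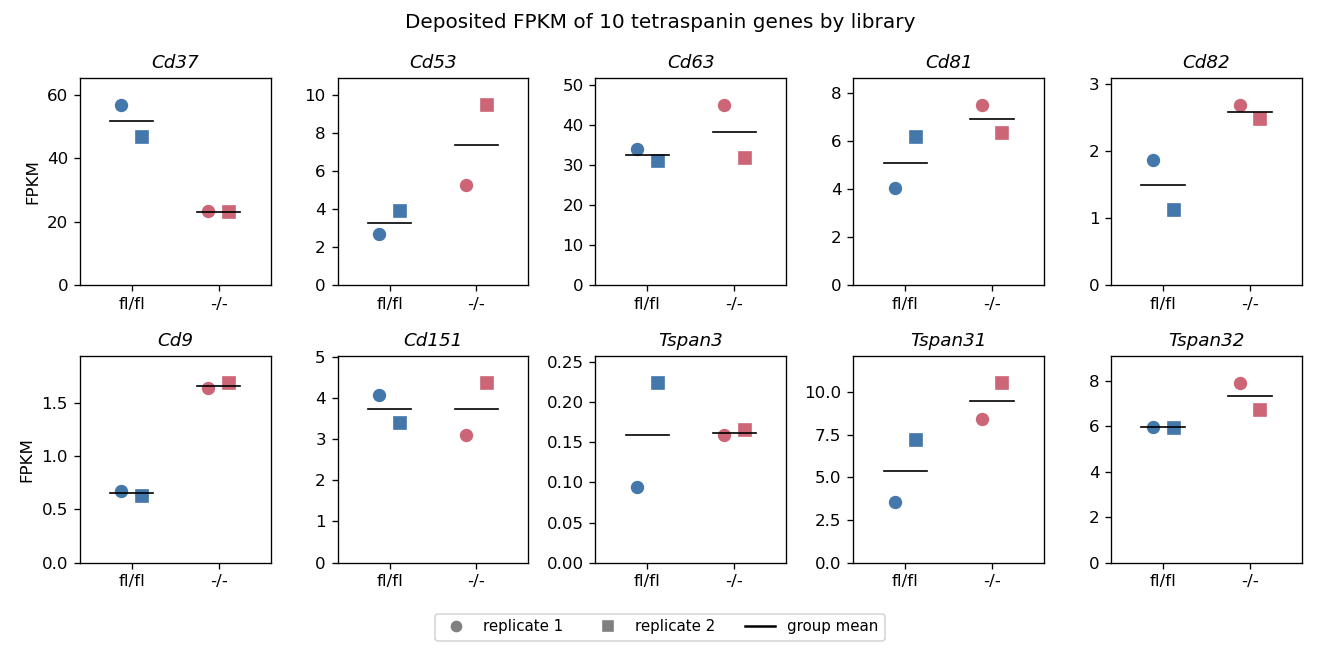
FPKM (vertical axis, each panel from 0) of the 10 tetraspanins in the CD37 fl/fl (fl/fl) and CD37 -/- (-/-) libraries, with circles for replicate 1, squares for replicate 2 and a line at the group mean. Cd37 sits at 56.6 and 46.8 against 23.2 and 22.9, the Cd9 points of each group nearly coincide, and the Cd53 points of CD37 -/- lie far apart.

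The deleted gene was examined first, as a check of the labels. CD37 is a leukocyte tetraspanin known best from B cells. The FPKM of Cd37 was 56.6 and 46.8 in CD37 fl/fl, against 23.2 and 22.9 in CD37 -/-. Both CD37 -/- libraries were thus below both CD37 fl/fl libraries and close to each other, but neither was near 0. The means were 51.7 ± 6.97 and 23.1 ± 0.198 (SD, n = 2 each), which left 44.6% of the level in CD37 fl/fl LSCs. Its log2 fold change was -1.12 (SE 0.24; limma, unadjusted p = 0.00403, adjusted p = 0.104). In recovered reads, Cd37 had 4759 and 4443 in CD37 fl/fl, against 2257 and 2844 in CD37 -/-. Which exons these reads came from was not tested. Leaving out any 1 library gave log2 fold changes between -1.26 and -0.99.

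The other tetraspanins of blood cells were Cd53 and Tspan32. CD53 is present on most leukocytes and is a close relative of CD37. The FPKM of Cd53 (ENSMUSG00000040747, chr3:106759921-106790149, minus strand) was 2.69 and 3.89 in CD37 fl/fl, against 5.25 and 9.47 in CD37 -/-. The groups did not overlap, but the CD37 -/- libraries were further apart than the CD37 fl/fl mean was from the lower of them. The log2 fold change was 0.93 (SE 0.31; limma, unadjusted p = 0.0238, adjusted p = 0.158), and the ratio of the means was 2.24. Without CD37 -/- replicate 2 it was 0.56 (unadjusted p = 0.127), and without CD37 fl/fl replicate 1 it was 0.73 (unadjusted p = 0.123), so the unadjusted call rested on these libraries. TSPAN32, a tetraspanin of blood cells also known as PHEMX, gave a small difference. The FPKM of Tspan32 (chr7:143005046-143019644, plus strand) was 5.97 and 5.95 in CD37 fl/fl, against 7.92 and 6.73 in CD37 -/-. The groups did not overlap, and the log2 fold change was 0.26 (SE 0.19; limma, adjusted p = 0.436). An antisense gene, Tspan32os, covers 20.5% of the span of Tspan32, and whether reads were counted by strand is not given in the sources used here.

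Cd9 and Cd82 encode broadly used tetraspanins that bind integrins. CD9 is abundant on platelets and on extracellular vesicles. The FPKM of Cd9 (ENSMUSG00000030342, chr6:125460266-125494791, minus strand) was 0.676 and 0.627 in CD37 fl/fl, against 1.64 and 1.69 in CD37 -/-. The 2 groups were far apart in relation to the gap between replicates, and recovered reads were 358 and 375 against 1004 and 1320. The ratio of the means was 2.55, and the log2 fold change on the log2(FPKM + 1) scale was 0.69 (SE 0.16; limma, unadjusted p = 0.00551, adjusted p = 0.113). In limma-voom, which adds no constant of 1 FPKM, it was 1.35 (SE 0.27, adjusted p = 0.0724). Cd9 passed the read filter of that fit in both groups, whereas its limma test depended on its CD37 -/- values. Cd37 and Cd9 were the members with an unadjusted p under 0.05 in every fit that tested them, each of the 4 fits without 1 library included. The antisense gene Gm28809 covers 9.60% of the span of Cd9. Cd82, once described as a suppressor of metastasis, was higher by less. The FPKM of Cd82 (chr2:93419111-93463140, minus strand) was 1.87 and 1.12 in CD37 fl/fl, against 2.68 and 2.48 in CD37 -/-. The groups did not overlap, and CD37 fl/fl replicate 2 was the lowest of the 4. The log2 fold change was 0.54 (SE 0.21; limma, unadjusted p = 0.0432, adjusted p = 0.194). It was 0.32 without CD37 fl/fl replicate 2 (unadjusted p = 0.166), and the unadjusted call was also lost without either CD37 -/- library. A long noncoding gene on the other strand, Gm10804, covers 23.4% of the span of Cd82.

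CD81 is found on lymphocytes and many other cells, and CD151 binds integrins that hold laminin. The FPKM of Cd81 (chr7:143052739-143067934, plus strand) was 4.04 and 6.15 in CD37 fl/fl, against 7.49 and 6.33 in CD37 -/-. CD37 fl/fl replicate 2 was close to CD37 -/- replicate 2, so the groups were separate by a narrow margin. The log2 fold change was 0.39 (SE 0.24; limma, adjusted p = 0.349), and 0.14 without CD37 fl/fl replicate 1. The FPKM of Cd151 (chr7:141467392-141471473, plus strand) was 4.08 and 3.38 in CD37 fl/fl, against 3.11 and 4.36 in CD37 -/-. The CD37 -/- libraries enclosed the CD37 fl/fl ones, and the log2 fold change was -0.01 (SE 0.21; limma, adjusted p = 0.987), with a sign that turned under TPM, under centring by gene span and in limma-voom. A noncoding gene on the opposite strand covers 6.24% of the span of Cd81 and another 9.31% of that of Cd151.

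CD63 marks late endosomes, lysosomes and secreted vesicles. The FPKM of Cd63 (chr10:128900989-128912822, plus strand) was 34.1 and 31.0 in CD37 fl/fl, against 45.0 and 31.8 in CD37 -/-. CD37 -/- replicate 1 stood above the other 3 libraries, which were alike. The log2 fold change was 0.21 (SE 0.27; limma, adjusted p = 0.644), and -0.03 without CD37 -/- replicate 1. TSPAN31 is less studied, and its gene overlaps Cdk4, a cell cycle kinase on the other strand. The FPKM of Tspan31 (chr10:127067280-127070264, minus strand) was 3.54 and 7.19 in CD37 fl/fl, against 8.40 and 10.5 in CD37 -/-. The groups did not overlap, but the CD37 fl/fl libraries differed by more than the gap between the groups. The log2 fold change was 0.77 (SE 0.32; limma, unadjusted p = 0.0563, adjusted p = 0.214), and 0.35 without CD37 fl/fl replicate 1. The overlap with Cdk4 is 641 bases, 21.5% of the span of Tspan31, and the FPKM of Cdk4 was 50.1 and 83.3 in CD37 fl/fl, against 54.7 and 59.4 in CD37 -/-. CD37 fl/fl replicate 1 was the lowest library for both genes, and a part of Cdk4 reads in the value of Tspan31 was not tested. Tspan3, a broadly used member, had few reads in these cells. Its FPKM (chr9:56131725-56165477, minus strand) was 0.0947 and 0.224 in CD37 fl/fl, against 0.159 and 0.165 in CD37 -/-. The CD37 -/- libraries lay between the CD37 fl/fl ones, and limma-voom gave a log2 fold change of 0.12 (SE 0.52, adjusted p = 0.900) on 49, 131, 95 and 126 reads.

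**Figure D2:**
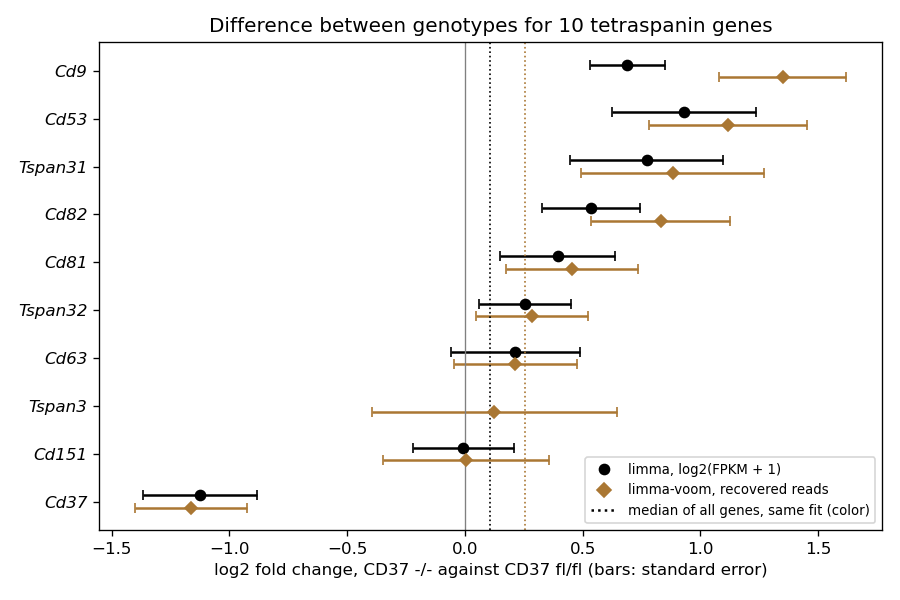
log2 fold change of CD37 -/- against CD37 fl/fl for each tetraspanin, with standard errors, from limma on log2(FPKM + 1) (black) and from limma-voom on recovered reads (brown). Dotted lines stand at the medians of all tested genes, 0.11 and 0.25. Cd37 lies apart on the left, the Cd9 value is larger in limma-voom than in limma, and Cd151 and Tspan3 lie near 0 with bars that cross it.

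Levels of different genes were compared only in reads per kilobase of exon, scaled to library depth, since the deposited FPKM divides by the span. The span is 17.4 times the exon length for Cd53, 16.9 times for Cd9 and 14.7 times for Cd82, but 1.56 times for Cd37 and 1.36 times for Tspan31. Reads in introns, if counted, would raise the level most in genes with long introns, such as Cd53, Cd9 and Cd82. Their part in the order and shares given below was not tested. On the exon scale, the highest member in CD37 fl/fl LSCs was Cd63 with a level of 105.5 ± 7.68 (SD, n = 2), followed by Cd37 with 81.2 ± 11.4 and Cd53 with 57.5 ± 14.5. The libraries of these neighbours did not overlap. Cd81 (27.1 ± 7.80) and Cd82 (22.1 ± 7.91) came next and overlapped each other. Tspan32 (14.1 ± 0.114) and Cd9 (11.1 ± 0.661) were lower and separate. Tspan31 (7.36 ± 3.50) and Cd151 (5.60 ± 0.772) overlapped, and Tspan3 was lowest (1.27 ± 0.721).

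In CD37 -/- LSCs, the levels per exon length of Cd53 (128.2 ± 51.7, SD, n = 2) and Cd63 (124.1 ± 30.3) were highest and overlapped. Cd82 (38.0 ± 2.20), Cd81 (36.6 ± 4.43) and Cd37 (36.1 ± 0.383) formed a middle group in which each overlapped the next. Cd9 had a level of 28.2 ± 0.548, Tspan32 of 17.2 ± 2.01, Tspan31 of 12.9 ± 2.04, Cd151 of 5.59 ± 1.32 and Tspan3 of 1.28 ± 0.0328, each separate from the next. Cd37 was thus second of 10 in CD37 fl/fl LSCs and within a group of near-equal members in CD37 -/- LSCs. The sum of the 10 levels was 334.2 and 331.4 in CD37 fl/fl, against 416.6 and 439.7 in CD37 -/-. Cd37 made up 26.7% and 22.1% of it in CD37 fl/fl, against 8.72% and 8.14% in CD37 -/-, and Cd53 14.1% and 20.4% against 22.0% and 37.5%. These are shares of levels, not of reads. The sum was higher in both CD37 -/- libraries although Cd37 itself was lower there. Over all tested genes, the median log2 fold change was also above 0 on this scale, at 0.19. It was 0.25 in limma-voom, which uses the same depths, but 0.03 there with median-ratio scaling. The sum was not computed under other scalings, and the cause of its difference was not tested.

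**Figure D3:**
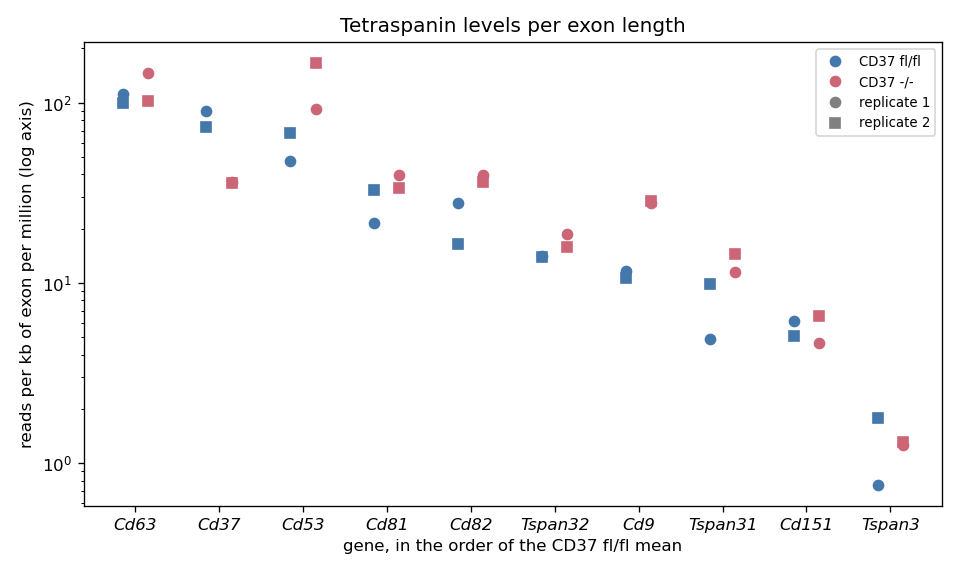
Reads per kilobase of exon, scaled to library depth (log axis) of each tetraspanin in the 4 libraries, in the order of the CD37 fl/fl mean, with CD37 fl/fl in blue, CD37 -/- in red, circles for replicate 1 and squares for replicate 2. Levels run from Cd63 with a CD37 fl/fl mean of 105.5 to Tspan3 with 1.27, and Cd37 is the member whose CD37 -/- points lie well below its CD37 fl/fl points.

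The wider family list held 31 mouse tetraspanin genes, of which 26 were in the table, and Tspan6, Tspan8, Tspan10, Tspan11 and Upk1b were not analysed here. In limma, 12 of them were tested, and the 3 higher and 1 lower at an unadjusted p under 0.05 were those named above. The median log2 fold change of the 12 was 0.25, beside 0.11 for all tested genes. The 3 tested genes outside the 10 differed little. Tspan4 had a log2 fold change of -0.15 (SE 0.18), Tspan17 of 0.23 (SE 0.33) and Rom1 of 0.23 (SE 0.17), with adjusted p in limma of 0.610, 0.677 and 0.428. In limma-voom, 20 family genes were tested, with 6 higher and 1 lower, beside 19.1% and 6.17% of all genes in that fit, and a median of 0.53 beside 0.25. The further genes were Tspan14, Tspan2 and Tspan7.

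TSPAN14 belongs to the TspanC8 group, the tetraspanins that carry the protease ADAM10 to the cell surface. The FPKM of Tspan14 was 0.609 and 0.525 in CD37 fl/fl, against 1.08 and 1.36 in CD37 -/-, with 563, 549, 1153 and 1859 recovered reads. The groups were clearly separate, and the log2 fold change in limma-voom was 1.10 (SE 0.27, unadjusted p = 0.00355, adjusted p = 0.0840). Tspan14 was the 1 gene with an unadjusted p under 0.05 in limma-voom among the 5 tested of the TspanC8 group and Adam10, a share close to the 19.1% of all genes higher in that fit. The median of the 5 was 0.65, beside 0.25 for all genes. Adam10 itself had an FPKM of 1.08 and 1.41 in CD37 fl/fl, against 1.18 and 1.49 in CD37 -/-. These ranges overlapped, and its log2 fold change in limma was 0.06 (SE 0.18, adjusted p = 0.864), with a sign that turned under quantile normalization and when genes of similar length were used for centring. Tspan5 gave 0.65 (SE 0.35) in limma-voom, Tspan33 1.14 (SE 0.98) and Tspan17 0.61 (SE 0.59), none with an unadjusted p under 0.05. Tspan2 had 154 and 81 reads for CD37 fl/fl, against 209 and 409 for CD37 -/- (log2 fold change in limma-voom 1.12, SE 0.48, adjusted p = 0.189). Tspan7 was at the edge of detection, with 2 and 2 reads against 10 and 35 (limma-voom, adjusted p = 0.145). Tspan13 (-0.71, SE 0.53) and Upk1a (-1.13, SE 0.58) were lower in limma-voom without an unadjusted p under 0.05. Tspan1, Tspan9, Tspan12, Tspan15 and Tspan18 had at most 12 reads in any library, and Prph2, a tetraspanin of photoreceptors, had 0 in all 4.

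Partner proteins of tetraspanins were described from a list of 19 genes, 18 of them in the table. The list was chosen with earlier results of these data known. In limma, 5 of the 10 tested were higher at an unadjusted p under 0.05 and 1 was lower, beside 16.1% and 7.96% of all tested genes, with a median log2 fold change of 0.52 beside 0.11. In limma-voom, 6 of 17 were higher and 1 lower, beside 19.1% and 6.17% of all genes in that fit. The median of the 17 was 0.56 beside 0.25. Of the 10 tested in limma, 5 were higher and 1 lower in CD37 -/- without overlap, beside 38.2% and 23.7% of all tested genes. The integrins were split. Itgb2, the shared beta chain of the leukocyte integrins, had an FPKM of 5.08 and 3.56 in CD37 fl/fl, against 12 and 17.2 in CD37 -/- (log2 fold change 1.55, SE 0.27; limma, adjusted p = 0.0747). Itgal, the alpha chain that pairs with it in LFA-1, had 1.36 and 0.880 against 2.89 and 4.47 (1.13, SE 0.24; limma, adjusted p = 0.101). Both chains of LFA-1 were thus higher in both CD37 -/- libraries. Itgb7, a beta chain that pairs with alpha 4, had an FPKM of 6.44 and 4.54 in CD37 fl/fl, against 0.675 and 2.67 in CD37 -/- (-1.37, SE 0.39; limma, unadjusted p = 0.0137, adjusted p = 0.138). CD37 -/- replicate 1 was far the lowest, and without it the log2 fold change of Itgb7 was -0.81 (unadjusted p = 0.0451). Its call was lost without CD37 fl/fl replicate 1 (-1.16, unadjusted p = 0.0831). Itga4, the alpha 4 chain, was below the filter, with 0.165 and 0.233 against 0.189 and 0.317. Itgb1, the broadly used beta chain, gave 0.45 (SE 0.18; limma, unadjusted p = 0.0436, adjusted p = 0.195). The unadjusted call of Itgb1 was lost in 3 of the 4 fits without 1 library, with an unadjusted p = 0.133 without CD37 fl/fl replicate 1, 0.125 without CD37 -/- replicate 1 and 0.169 without CD37 -/- replicate 2 (limma). It was also lost with quantile normalization (unadjusted p = 0.146 in limma), division by the upper quartile (0.0535), the replicate number as a block (0.0640) and centring by span or exon length (0.179 and 0.140).

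Sdcbp and Pdcd6ip, scaffold genes of vesicle formation, were among the partners with an unadjusted p under 0.05. Sdcbp encodes syntenin, which binds the tail of CD63, and Pdcd6ip encodes ALIX, which binds syntenin. The FPKM of Sdcbp was 1.95 and 2.91 in CD37 fl/fl, against 5.15 and 6.82 in CD37 -/- (log2 fold change 1.03, SE 0.23; limma, adjusted p = 0.106). That of Pdcd6ip was 1.69 and 2.15 against 3.11 and 3.70 (0.60, SE 0.19; limma, adjusted p = 0.150). The unadjusted call of Pdcd6ip was lost without CD37 fl/fl replicate 1 (unadjusted p = 0.0755 in limma), without CD37 -/- replicate 2 (0.117), with quantile normalization (0.0570) and with centring by span or exon length (0.0555 and 0.0644), whereas that of Sdcbp was kept in these fits. Sdcbp and Pdcd6ip were separate between the groups, whereas Cd63 was not. Of the others, Clec7a, which encodes dectin-1, a partner of CD37, had 4.31 and 1.40 against 4.06 and 8.13. CD37 fl/fl replicate 2 was low and the groups overlapped (0.93, SE 0.45; limma, adjusted p = 0.261). Its log2 fold change was 0.36 without CD37 fl/fl replicate 2, 0.50 without CD37 -/- replicate 2, 1.35 without CD37 -/- replicate 1 and 1.5 without CD37 fl/fl replicate 1. Cd44 gave -0.04 (SE 0.24) and Ptpn6, which encodes the phosphatase SHP-1, -0.19 (SE 0.25), both with overlapping groups. The signs of these last 2 turned under TPM.

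Gene length moved with the fold changes over all genes. In limma-voom, the median log2 fold change was -0.05 for genes with a span up to 5 kb, 0.06 from 5 to 10 kb, 0.21 from 10 to 20 kb and 0.41 from 30 to 50 kb. Cd53, Cd9, Cd82 and Tspan3 have spans between 30 and 50 kb, where the middle part of all genes, from the 25th to the 75th percentile, ran from -0.00 to 0.83. Cd9 (1.35) and Cd53 (1.12) were above it, Cd82 (0.83) at its upper edge and Tspan3 (0.12) inside it. Cd37 was below the range of -0.37 to 0.57 for spans of 5 to 10 kb, and Tspan31 (0.88) above that of -0.58 to 0.68 for spans up to 5 kb. Cd63, Cd81, Cd151 and Tspan32 were inside the ranges of their bins. When each library was centred on genes of similar span, an alternative added after the data were seen, the limma log2 fold change was -1.08 for Cd37, 0.46 for Cd9 (unadjusted p = 0.0242), 0.70 for Cd53 (0.0452), 0.32 for Cd82 (0.208) and 0.91 for Tspan31 (0.0445). The count of members thus stayed at 3 higher and 1 lower, with Tspan31 in the place of Cd82. With centring on genes of similar exon length, it was 2 higher and 1 lower, with Cd82 (unadjusted p = 0.0942 in limma) and Tspan31 (0.0622) not called.

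**Figure D4:**
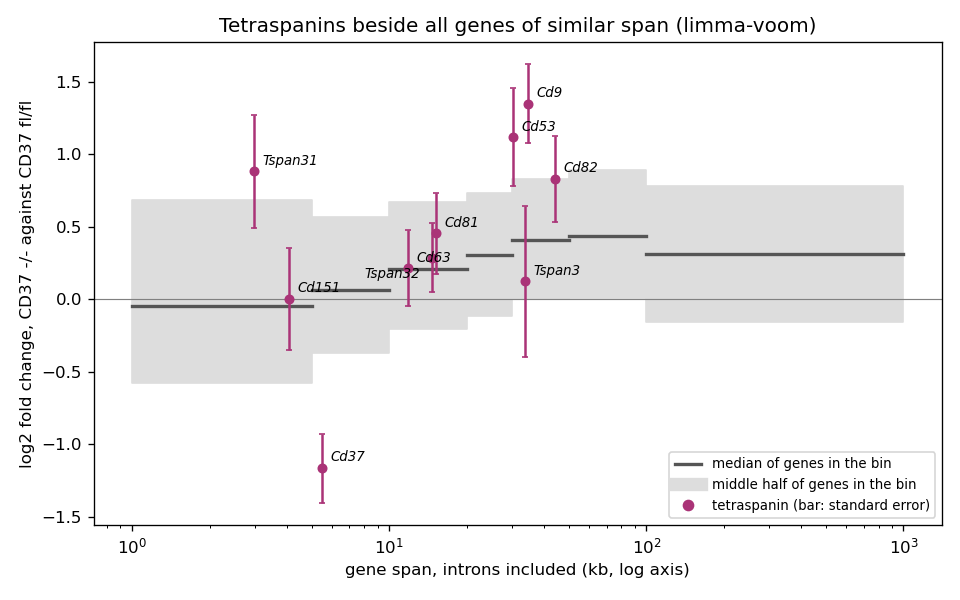
log2 fold change in limma-voom (vertical axis, bars are standard errors) of the 10 tetraspanins against the span of the gene in kilobases (log axis). Dark lines give the median and gray areas the 25th to 75th percentile of all genes in a bin of span, with the last bin drawn to the edge of the plot. The medians run from -0.05 in the shortest bin to 0.43 between 50 and 100 kb, and Cd9, Cd53 and Tspan31 lie above and Cd37 below the gray area.

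Markers of other cells were read beside the members, as summed reads per kilobase of exon, scaled to library depth. Of all genes tested in limma, 38.2% were higher and 23.7% lower in CD37 -/- without overlap, and the counts of markers below stand beside these shares. The 7 erythroid markers in the table were all higher in both CD37 -/- libraries, with sums of 91.2 and 8.23 in CD37 fl/fl, against 921.9 and 238.0 in CD37 -/-, most of it globin. Of the others, Epor had 3 and 4 reads against 16 and 6, and Klf1 had 7 and 7 against 21 and 33. The 6 neutrophil markers summed to 52917 and 10472 in CD37 fl/fl, against 45804 and 28524 in CD37 -/-, with CD37 fl/fl replicate 2 lowest and 3 of the 6 (Ngp, Ltf and Retnlg) higher in both CD37 -/- libraries. The 4 T and NK cell markers summed to 123.7 and 152.6 against 52.8 and 53.7, nearly all of it Nkg7, and 1 of the 4 was lower and 2 higher without overlap. Of the B cell markers, Cd79b, a chain of the B cell receptor, had a level of 30.3 and 36.9 against 19.3 and 14.8, and Cd79a had 18, 6, 26 and 35 reads. The megakaryocyte, macrophage and dendritic cell, mast cell and stroma lists had at most 2 genes separate in a direction and sums that overlapped between the groups. The 7 genes listed for the sorted leukemia cells summed to 4943 and 7510 against 4990 and 4651. Without overlap, 3 were higher in CD37 -/- (Kit, Hoxa10 and Meis1) and 2 lower (Mpo and Ctsg). Hoxa10 had a level of 11.3 and 12.7 in CD37 fl/fl, against 23.8 and 30.7 in CD37 -/-. Mpo had 257.2 and 164.0 against 109.6 and 65.9. Of the 7, Hoxa9, Meis1, Mpo and Elane, which such leukemia cells express, were present in all 4 libraries, whereas Kit, the receptor used in the sort, had a level of 1.58 and 2.99 in CD37 fl/fl, against 3.02 and 4.00 in CD37 -/-. In bulk RNA, fewer cells of a type and less RNA per cell cannot be told apart, and the part of these markers in the tetraspanin values was not tested.

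The tested genes with a pattern most like that of Cd37 over the 4 libraries, by the distance between centred log2(FPKM + 1) values among 3118 genes whose FPKM averaged at least 5, were Bloc1s2 (distance 0.0889), Ccdc85b (0.146), Il3ra (0.167), the pseudogene Gpx4-ps2 (0.192) and Fth1 (0.199). Il3ra, the alpha chain of the interleukin 3 receptor, had an FPKM of 13.6 and 11.4 in CD37 fl/fl, against 4.89 and 4.34 in CD37 -/-. Fth1, the ferritin heavy chain, had 633.5 and 551.9 against 265.4 and 310.7. All 5 were lower in both CD37 -/- libraries by log2 fold changes close to that of Cd37, from -1.26 to -0.97, as their choice by likeness entails.

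**Figure D5:**
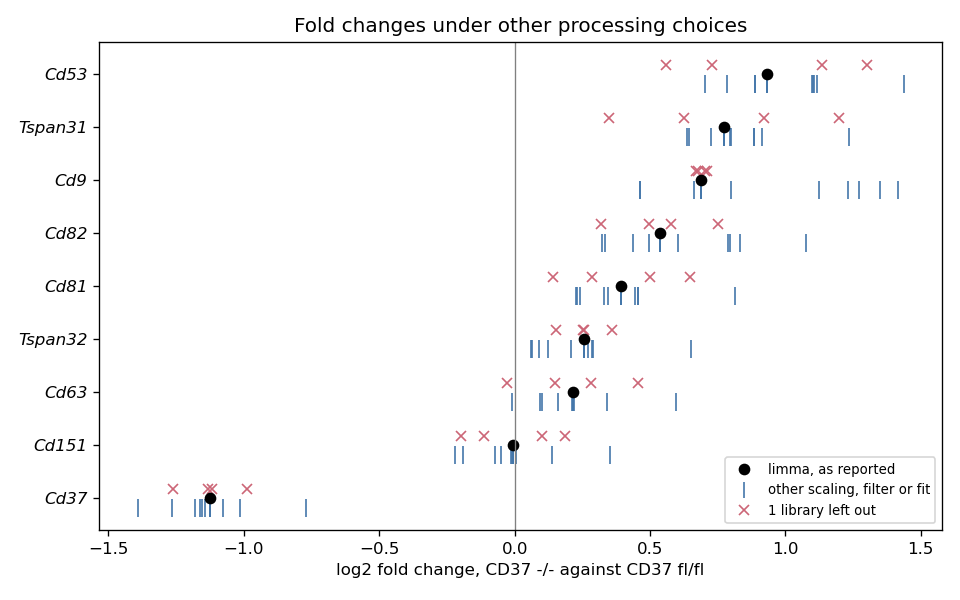
log2 fold change of the 9 tetraspanins tested in limma (black), under other scalings, filters and fits (blue ticks) and with 1 library left out (red crosses). All values of Cd37 lie below 0 and all of Cd53, Tspan31, Cd9, Cd82, Cd81 and Tspan32 above it, whereas those of Cd63 and Cd151 fall on both sides.

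Over the other fits that tested each gene, 16 for Cd9 and Cd82 and 17 for the others given here, the log2 fold change ran from -1.39 to -0.77 for Cd37, from 0.46 to 1.42 for Cd9 and from 0.56 to 1.44 for Cd53. It ran from 0.32 to 1.08 for Cd82, from 0.35 to 1.23 for Tspan31, from 0.14 to 0.81 for Cd81 and from 0.06 to 0.65 for Tspan32. The sign of these 7 members held throughout, and their adjusted p stayed above 0.05, with a smallest value of 0.0638 for Cd9.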

How the data were processed

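Bone marrow YFP+, c-kit+ LSCs of 2 CD37 fl/fl and 2 CD37 -/- replicates were compared. The authors deposited FPKM values, 1 column per library, not on a log scale. The submitters' processing notes name fastp 0.20.1, STAR 2.7.7a, featureCounts 2.0.0, edgeR and the build mm39. The study's methods name limma. Gene spans were taken from GENCODE M21 on GRCm38, which matched 17045 of 17104 identifiers (99.7%) and gave whole reads. All coordinates and sequences are from it. With exon length, 11.9% to 12.3% of values were whole. This share covers only values with lower read counts in genes whose span is well above their exon length, whereas the 98.9% with gene spans covers all values above 0. Reads were used for depth, levels per exon length and limma-voom only. Between replicates, reads differed by more than sampling noise (chi-square per degree of freedom 93.4 in CD37 fl/fl and 61.0 in CD37 -/-).

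Genes whose FPKM averaged at least 1 were tested on log2(FPKM + 1) with lmFit and eBayes with trend (limma 3.58.1, statmod 1.5.0, R 4.3.3), adjusted over all genes tested by Benjamini-Hochberg. limma-voom took genes that averaged 10 reads or more. The code was tested on simulated data. Python 3.11.15 with pandas 2.3.3, numpy 2.4.6 and matplotlib 3.10.9 was used for tables and plots. The members, lists and tests were chosen with earlier results of these data known. The named genes are the 10 members, family genes that averaged an FPKM of 1 or 10 reads, tested partners and the 5 genes nearest to Cd37, predicted genes passed over. Genes of the family with fewer reads, the partner Itga4, Cdk4 and the markers were named beside these after their values were seen. Alternatives were no filter except a value above 0, a filter at an FPKM of 5, a pseudocount of 0.1, quantile, TPM or upper quartile scaling, robust eBayes, a block for the replicate number, leaving out each library and limma-voom. limma-voom with median-ratio scaling, FPKM by exon length, and centring on genes of similar span or exon length (20 bins) were added after the data were seen. The levels per exon length use the union of exons. 1 marker gene is not reported here.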

Additional observations from a re-analysis of the deposited data

How the results depend on the processing

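Of 360 values of the log2 fold change of 22 tetraspanin and partner genes under other settings, 341 kept their direction and 19 did not. For Cd151 it was 0.35 under TPM, 0.14 with centring by span, 0.0038 in limma-voom, and with 1 library left out it ran from -0.20 to 0.19 (0.10 without CD37 fl/fl replicate 1 and 0.19 without CD37 -/- replicate 1). For Cd63 it was -0.011 in limma-voom with median-ratio scaling, and from -0.029 (without CD37 -/- replicate 1) to 0.46 with 1 library left out. Under TPM, Tspan4 had 0.18, Cd44 0.31 and Ptpn6 0.18. With 1 library left out, Cd44 ran from -0.32 to 0.24 and Tspan17 from -0.26 (without CD37 fl/fl replicate 2) to 0.73. Adam10 had -0.18 with quantile normalization, -0.13 with median-ratio scaling, -0.17 with centring by span and by exon length, and from -0.048 (without CD37 fl/fl replicate 1) to 0.16 with 1 library left out.

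The count of members higher at an unadjusted p under 0.05 (3 in limma) was 1 with all genes above 0, with a filter at a mean FPKM of 5 (which leaves fewer genes) and with quantile normalization, 7 under TPM, and from 1 (without CD37 -/- replicate 2) to 4 (without CD37 fl/fl replicate 2) with 1 library left out. The family count (3) was 1 with the filter at an FPKM of 5 and with quantile normalization, 7 under TPM, 6 in limma-voom and from 1 to 4 without the same libraries, and its lower count (1) was 2 with median-ratio scaling. Partners higher (5) were 1 with the filter at 5, 3 with quantile normalization and with either centring, and 3 without CD37 -/- replicate 2, and partners lower (1) were 0 with all genes above 0, with the filter at 5, under TPM and without CD37 fl/fl replicate 1. Members higher were also 2 with division by the upper quartile, in limma-voom with median-ratio scaling and with centring by exon length, and 4 with the replicate number as a block. Except for the stricter filter, the cause of these changes in count was not tested. Genes with an adjusted p under 0.05, 0 in limma, were 45 with the filter at 5, 88 with robust estimation and 73 with the replicate number as a block, and no member was among them. Over 6761 genes, deviations of same-numbered libraries from their group means had a correlation of -0.042. With 2 libraries per genotype, this cannot decide whether the numbers pair the samples. With the block, Tspan31 had an unadjusted p of 0.0252. Of the 10 places in the order of levels, 1 was kept with the deposited FPKM in each genotype, and 6 with the longest transcript in CD37 -/-.

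All members except Tspan3 had at least 162 recovered reads in each library, and the number of libraries, 2 per genotype, limits the precision.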
